A study of Mus musculus with 4 samples.

Results

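The suppressors of cytokine signalling (SOCS) are a family of 8 genes in the mouse, Socs1 to Socs7 and Cish. Their transcripts, with those of Stat3 and of Il6st, which encodes the receptor chain gp130, were compared between N2a cells that received manganese (Mn) at 300 µM over 48 h and untreated N2a cells. N2a is a line of mouse neuroblastoma, a tumour of the sympathetic nervous system, and the labels give its strain as C57BL/6. There was 1 library of total RNA per condition, from which ribosomal RNA had been removed. The treatment text of the labels is the same for both libraries, so that the titles alone tell the Mn-treated from the untreated cells. The 10 genes were taken by symbol from a table of 22287 genes. The set was chosen by the read ratio of Socs3, already seen to be among the lowest of the table, so its value is a description and no test of it was made. The identifiers are ENSMUSG00000053113 for Socs3, ENSMUSG00000004040 for Stat3 and ENSMUSG00000021756 for Il6st. With 1 library per condition no difference has a replicate check, each ratio compares these libraries and not the conditions, and fewer cells of a type cannot be told apart from less RNA per cell.

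Cytokines of the interleukin 6 group bind a receptor that contains gp130. Janus kinases (JAKs) on the receptor then phosphorylate STAT3, which enters the nucleus and switches on genes, Socs3 among them. The SOCS proteins close this loop: through an SH2 domain they bind phosphorylated receptors or kinases, and through the SOCS box they recruit a ubiquitin ligase. SOCS1 and SOCS3 can also block JAK activity directly.

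Reads assigned to mRNA genes came to 14606961 in the Mn-treated library and 13972437 in the untreated library. A gene is called measured where its reads in both libraries sum to 20 or more, which 11872 genes reached. Their median log2 ratio of the Mn-treated over the untreated library was 0.18 on the scale of the column totals. A ratio below is to be read against that value. All 10 genes were measured. Of 14 marker genes of sympathetic neuroblastoma 12 were measured, with 45260 and 43742 reads in the Mn-treated and the untreated library, of which Tubb3 had 33715 and 33400, while the neurofilament genes Nefl and Nefm had 0 reads in both. The markers did not move together: their log2 ratios ran from -0.88 [-1.19 to -0.58] for Isl1, which was at -1.83 by FPKM, to 0.91 [0.53 to 1.30] for Th. Of the macrophage markers Ptprc, Aif1 and Cx3cr1 had 0 reads in both libraries, and the list of 6 summed to 19 reads in the Mn-treated and 4 in the untreated library. Astrocyte markers (4 genes) summed to 57 and 66 reads, with Aqp4 and Slc1a3 at 0, fibroblast markers (5 genes) to 121 and 91, and endothelial markers (3 genes) to 78 and 70. The part of other cell types in the results was not tested.

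The Socs3 estimate was far lower in the Mn-treated library, and it was the only one of the 10 genes to differ by 2-fold or more. That estimate was not a whole number. Summed with 1 lncRNA transcript of complementary decimals, whose place in the genome is not given, Socs3 was at a log2 ratio of -0.014. That transcript was singled out after its values were seen. Its gain was near what Socs3 lacked, so a sum near 0 follows from the choice. Of 569 features screened 7 had complementary decimals, where 5.69 would match by decimals alone. Of these 7, the lncRNA transcript alone also gained within 5 reads of what Socs3 lacked. Socs3, which binds gp130 and inhibits signalling from it, had 23 reads in the Mn-treated library, against 297 in the untreated library. Scaled to the column totals, these are 1.57 reads per 1000000 (RPM) [0.998 to 2.36] with manganese and 21.3 RPM [18.9 to 23.8] without. Brackets hold 95% intervals that cover counting error only. The log2 ratio was -3.73 [-4.43 to -3.14], so that the level in the untreated library was 13.2 times that in the Mn-treated library. Of the measured genes, 1.70% were at least 2-fold lower and 7.26% at least 2-fold higher in the Mn-treated library, and 16 of 11872 had a lower ratio than Socs3. The log2 ratio of Socs3 ranged between -3.91 and -3.70 over other scalings, FPKM, unrounded counts and another pseudocount.

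The low value rests on an estimate that was not whole. The deposited estimate for Socs3 was 23.29 reads in the Mn-treated library and 297 reads in the untreated one. A decimal part can arise where counting divides reads between features, but how these estimates were made is not given. For Stat5a and Stat5b, adjacent and closely related genes, the estimates of 203.08 and 858.92 reads in the Mn-treated library add to 1062. Those of 198.5 and 775.5 in the untreated library add to 974. Whether reads were divided between these genes was not tested. Among the 11872 measured genes 23.0% had an estimate that was not whole in at least 1 library, as did 42.1% of the 202 genes at least 2-fold lower and 30.5% of the 862 at least 2-fold higher. At the untreated share of reads, Socs3 would have had 287 more reads in the Mn-treated library. Of 52977 features in the mRNA and lncRNA tables, 569 had an estimate there that was not whole and gained between 144 and 574 reads, and 7 of these have decimals that add to a whole number with those of Socs3. Estimates are given to 0.01 of a read, so decimals alone would match in about 1 of 100 features, or 5.69 of the 569. One of the 7, singled out after its values were seen, is the lncRNA transcript ENSMUST00000172904, with 310.71 reads in the Mn-treated library, against 25.48 in the untreated library. Its gain of 284 reads is within 5 reads of what Socs3 lacked, which holds for 8 of the 569 features, this one included. The other 6 with matching decimals gained between 154 and 383 reads, so this transcript alone met both criteria. Socs3 and this transcript together had 334 reads in the Mn-treated and 322.48 in the untreated library, the second sum not being whole. The log2 ratio of the sums is -0.014, and a value near 0 follows from a gain so near what Socs3 lacked. With each of the other 6 the log2 ratio of the sums lay between -0.70 and 0.12. No table used here places the lncRNA transcripts, so whether this one overlaps Socs3 was not tested. The part of read division in the value of Socs3, and in every comparison with Socs3 below, was not tested. The protein-coding genes on either side of Socs3 in the RefSeq order (GRCm38) lay within 2-fold. Pgs1, which makes a mitochondrial phospholipid precursor, had 1766 reads with manganese, against 2042 without, a log2 ratio of -0.27 [-0.37 to -0.18]. Tha1 had 133 and 125 reads in the Mn-treated and the untreated library, at 0.03 [-0.34 to 0.39], on estimates that were not whole.

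The DNA before the start of Socs3 is shown because STAT proteins bind palindromes of the form TTCNNNGAA and because Socs3 is a textbook STAT3 target. RefSeq promoter windows (build GRCm38.p6, 250 bases before to 50 after a start) were at hand for 6 of the 10 genes, Socs1, Socs3, Socs4, Cish, Stat3 and Il6st. The palindrome reads the same on both strands, so a search of 1 strand finds all matches. The 250 bases of Socs3, chr11:117969367-117969616 on the minus strand, hold 1 match, in capitals, which begins at position -154 from the start:
Socs3: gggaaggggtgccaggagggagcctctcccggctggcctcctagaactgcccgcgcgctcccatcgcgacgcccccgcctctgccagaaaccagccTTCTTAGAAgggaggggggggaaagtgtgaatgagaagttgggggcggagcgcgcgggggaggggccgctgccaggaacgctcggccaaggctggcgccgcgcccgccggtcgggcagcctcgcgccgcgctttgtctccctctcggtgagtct
Of 32851 such windows 7.02% hold the palindrome in the 250 bases before the start and 8.30% in all 300 bases. Cish holds 2 matches directly after its start, shown as 1 stretch at chr9:107296659-107296678 on the plus strand, again with matches in capitals:
Cish: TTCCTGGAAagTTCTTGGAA
The windows of Socs1, Socs4, Stat3 and Il6st hold none. The longer spacing TTCNNNNGAA, also a palindrome, is in none of the 6 windows and in 6.95% of all. A match is a description of letters and does not show that a protein was bound. Whether a match is a STAT site described before was not looked up.

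**Figure D1:**
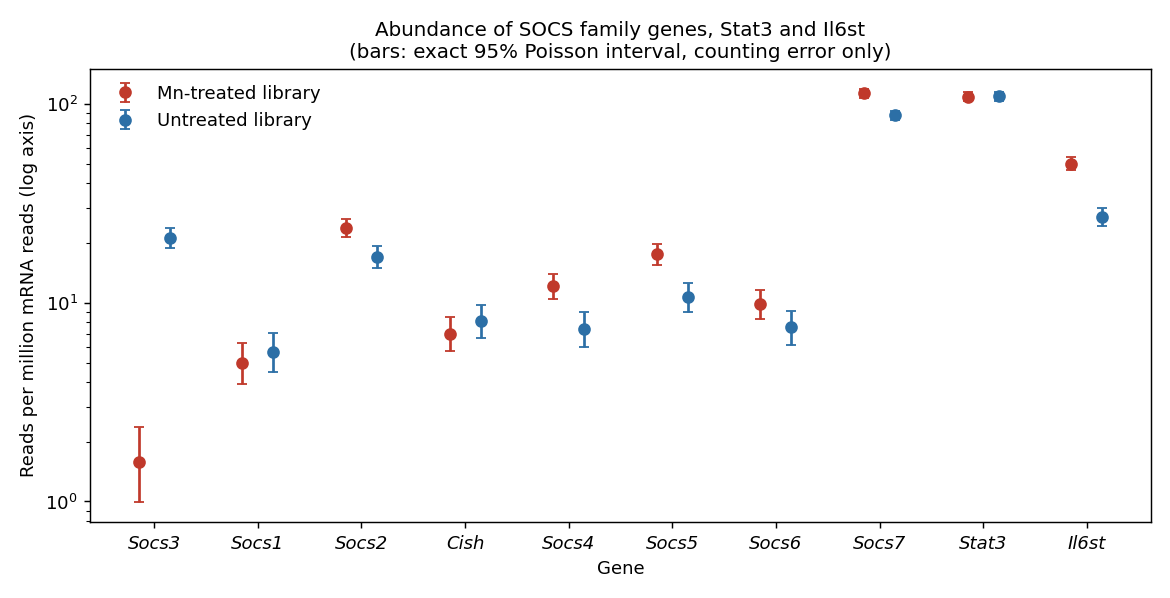
Level in RPM, reads per 1000000 mRNA reads (log axis), of each gene in the Mn-treated library (red, left) and the untreated library (blue, right), 1 library each, with exact 95% Poisson intervals that cover counting error only. Socs3 stands at 1.57 in the Mn-treated and 21.3 in the untreated library, while the other 9 genes lie within 2-fold.

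The other 7 SOCS family genes all lay within 2-fold. Their log2 ratios lay between -0.21 and 0.71 with a median of 0.39, 5 above and 2 below the median of all measured genes. Socs1, the closest to Socs3 in function and the main inhibitor of interferon signalling, had 73 reads in the Mn-treated and 79 in the untreated library. Its log2 ratio of -0.18 [-0.66 to 0.30] holds 0 within its interval. Cish, a STAT5 target that restrains signalling of cytokines such as interleukin 2, had 102 and 113 reads, at -0.21 [-0.61 to 0.19]. For Cish too the interval holds 0, and both intervals hold the median of all measured genes, so no difference was detectable at this depth.

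Socs2 and the 4 members with long amino-terminal regions had higher counts in the Mn-treated library. Socs2, which limits growth hormone signalling, had 349 reads with manganese, against 238 without, a log2 ratio of 0.49 [0.25 to 0.73]. Socs4 had 177 and 103 reads, at 0.71 [0.36 to 1.08], and Socs5, linked like Socs4 to the turnover of the epidermal growth factor receptor, had 256 and 149, at 0.71 [0.42 to 1.02]. Socs6 had 144 and 105 reads, at 0.39 [0.02 to 0.77], an interval that includes the median of all measured genes. Socs7, which binds adaptor proteins of insulin and growth factor signalling, had 1656 and 1227 reads, at 0.37 [0.26 to 0.48]. Its estimates were not whole in either library, with 1656.1 reads in the Mn-treated and 1226.56 in the untreated one. Of all 10 genes 3 were at least 1.5-fold higher, Socs4, Socs5 and Il6st, and 21.6% of all measured genes were. Scaling by median ratios or by TMM, which sets the median of all measured genes near 0, left Il6st past 1.5-fold at 0.71 and 0.72, but not Socs4 at 0.53 and 0.54 or Socs5 at 0.53 and 0.54. By FPKM Socs4, Socs6 and Il6st passed it and Socs5 did not. Socs3 alone was at least 1.5-fold lower, as were 5.97% of all measured genes.

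Within the family Socs3 held a smaller share of the reads in the Mn-treated library. It had 0.827% [0.525 to 1.24] of the 2780 family reads in the Mn-treated library, against 12.9% [11.5 to 14.3] of 2311 in the untreated library (Clopper-Pearson intervals). Summed, the other 7 genes had 2757 reads with manganese and 2014 without, a log2 ratio of 0.39 [0.31 to 0.47]. Relative to them Socs3 was lower by -4.14 [-4.83 to -3.52] on the log2 scale, a conditional odds ratio that does not depend on how the libraries are scaled but does depend on the Socs3 estimate. Socs7 held most of the family reads, 59.6% in the Mn-treated and 53.1% in the untreated library. Without Socs7, whose estimates were also the only ones of the 7 not to be whole, the value was -4.17 [-4.87 to -3.54]. On the FPKM scale, which divides by transcript length, Socs3 made up 1.20% of the summed FPKM of the family in the Mn-treated library and 17.3% in the untreated library. That sum was 30.9 FPKM with manganese and 28.1 FPKM without, since the other 7 genes together stood at 30.5 and 23.2 FPKM.

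**Figure D2:**
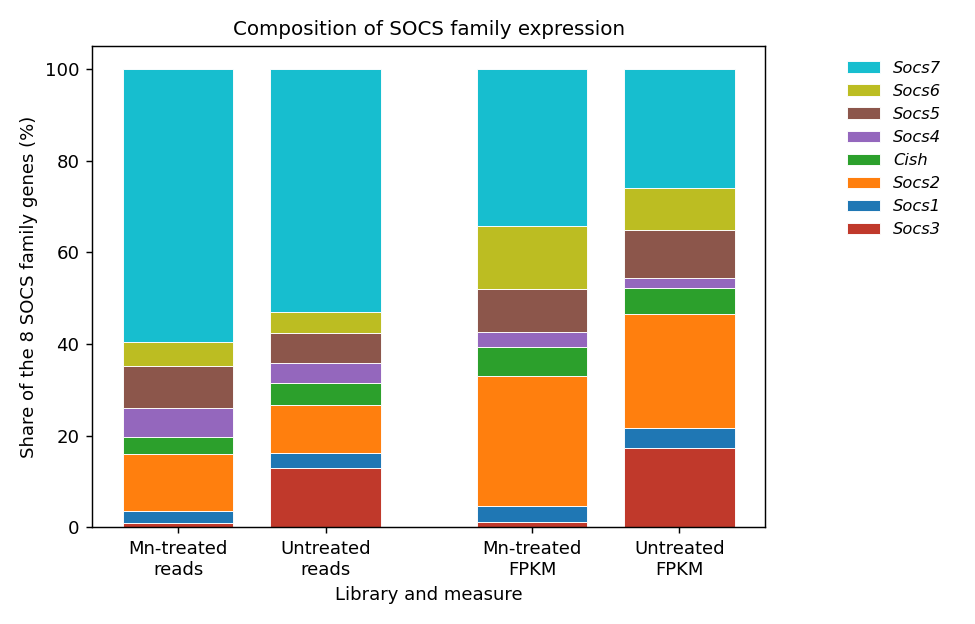
Share (%) of each of the 8 SOCS family genes in their summed reads (left pair) and summed FPKM (right pair), with the Mn-treated library left of the untreated library in each pair. The Socs3 share, in red at the bottom, is 0.827% in the Mn-treated and 12.9% in the untreated library by reads, and Socs7 at the top is the largest by either measure.

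Per length, Stat3, Socs7 and Socs2 headed the order in both libraries. Stat3 was the highest, at 25.5 FPKM in the Mn-treated and 21.1 in the untreated library, with Socs7 next at 10.6 and 7.32 and then Socs2 at 8.78 and 7.02. Socs3 was the lowest of the 10 in the Mn-treated library at 0.37 FPKM [0.235 to 0.555], below Socs4 at 1.04 FPKM [0.892 to 1.21]. In the untreated library it was the fourth at 4.87 FPKM [4.33 to 5.46], and its counting interval overlapped that of Il6st at 4.06 [3.66 to 4.49]. Neighbours in the order with overlapping intervals were Socs1 and Socs4 in the Mn-treated library. In the untreated library they were Socs7 and Socs2, Socs3 and Il6st, Socs5 and Socs6, and Cish and Socs1.

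Stat3 and Il6st, upstream of Socs3, lay within 2-fold, Stat3 near 0 and Il6st higher in the Mn-treated library. Stat3, the transcription factor activated through gp130, had 1595 reads with manganese, against 1532 without, a log2 ratio of -0.01 [-0.11 to 0.10]. That interval lies below the median of all measured genes by counts, 0.18. The FPKM ratio of Stat3 gave 0.27, where the median of all measured genes by FPKM was 0.16. Il6st had 733 reads in the Mn-treated library, against 377 in the untreated library, a log2 ratio of 0.89 [0.71 to 1.08]. By counts it was 1.86 times as high with manganese, the highest ratio of the 10 genes. Its FPKM ratio gave 0.65, below those of Socs6 at 0.74 and Socs4 at 0.72. The estimates of both genes were whole.

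Counts and FPKM gave the same picture for Socs3 but not for every gene. The FPKM ratio of Socs3 was -3.72 on the log2 scale. The number of reads behind 1 FPKM reflects the transcript length that the authors' estimate used, and it was 62.2 for Socs3 in the Mn-treated and 61.0 in the untreated library. Socs1 and Socs4 also had nearly the same log2 ratio by both measures, -0.17 and 0.72 by FPKM. Socs5 was at 0.71 by counts and at -0.05 by FPKM, and the reads behind 1 FPKM were 89.5 in the Mn-treated and 50.2 in the untreated library. That is 1.73 times the change of the median gene. For Cish they were 53.4 and 72.4, and its ratio was -0.21 by counts and 0.29 by FPKM. Socs6 went the same way by both measures, at 0.39 and 0.74. Socs5, Cish and Stat3 thus differed in sign between counts and FPKM, as did 8.48% of all measured genes, so the direction of these 3 genes depends on the measure. Socs5 was past 1.5-fold only by counts scaled to the column totals. In the table that the authors deposited, a count of 6 of the 10 genes have a false discovery rate under 0.05, from a test that the header does not name, and 58.2% of the measured genes do. Stat3, Socs1, Socs6 and Cish are the other 4.

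**Figure D3:**
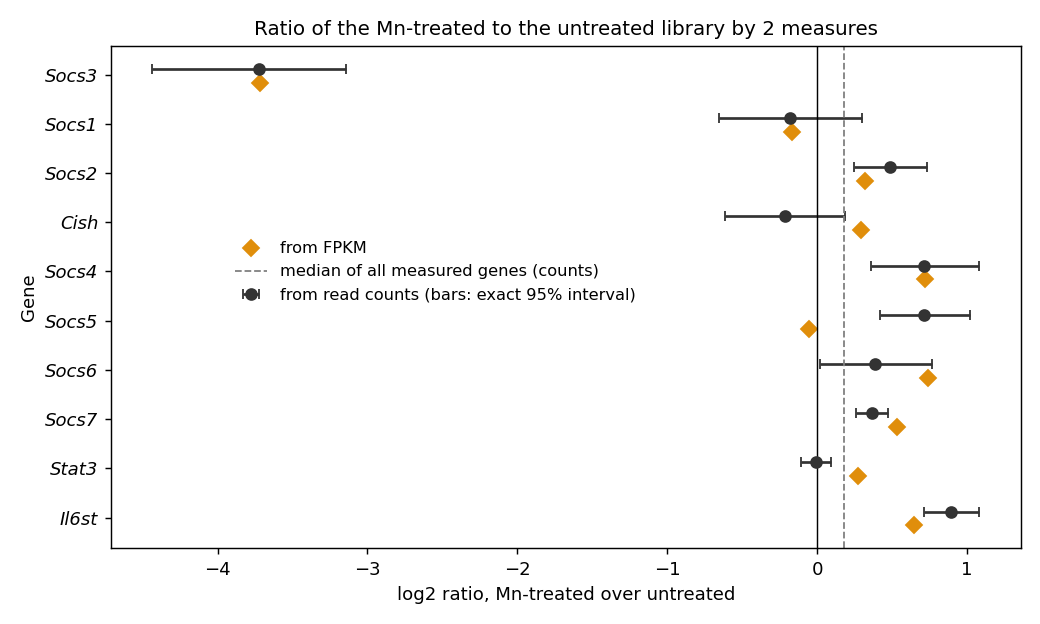
Log2 ratio of the Mn-treated over the untreated library for each gene from read counts (dark points, exact 95% intervals that cover counting error only) and from FPKM (orange diamonds). The dashed line is the median of all measured genes by counts, 0.18. Socs3 is at -3.73 and -3.72 by the 2 measures, and Socs5, Cish and Stat3 have diamonds on the other side of 0 from their points.

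The lists of the wider pathway are given beside the shares of all measured genes past 2-fold, 7.26% higher and 1.70% lower in the Mn-treated library. Of the ligands that signal through gp130, 6 of 10 were measured, and 0 passed 2-fold in either direction by counts. Their median log2 ratio was -0.20, and 0.03 over all ligands with at least 1 read. For Lif, leukaemia inhibitory factor, named after its values were seen, counts and FPKM differed. It had 50 reads with manganese and 46 without, a log2 ratio of 0.05 [-0.55 to 0.67], but 0.50 FPKM with manganese and 1.38 FPKM without, a log2 ratio of -1.46. Il6, the lowest of them, had 123 reads in the Mn-treated library, against 223 in the untreated library, a log2 ratio of -0.92 [-1.25 to -0.60], and its FPKM ratio gave -0.76. Clcf1, a ligand of the ciliary neurotrophic factor receptor, was the highest at 0.80 [0.06 to 1.59] with 44 reads in the Mn-treated and 24 in the untreated library.

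Of the receptor chains that pair with gp130, 4 of 6 were measured, with a median log2 ratio of 0.20 by counts and -0.14 by FPKM, and 1 was at least 2-fold higher. That was Il6ra, which binds interleukin 6, with 39 reads in the Mn-treated library, against 6 in the untreated library, a log2 ratio of 2.54 [1.39 to 4.17] on few reads. Il11ra1 was the most abundant with 1678 and 1793 reads, at -0.16 [-0.26 to -0.06]. Cntfr was at 0.57 with estimates that were not whole, and at -0.14 by FPKM. Il27ra was at -0.24 [-0.85 to 0.36]. Lifr and Osmr, the partners of gp130 for leukaemia inhibitory factor and oncostatin M, had 0 reads in both libraries. A count of 0 allows up to 0.205 RPM in the Mn-treated and 0.215 in the untreated library. Of 19 other cytokine receptors 8 were measured, 0 passed 2-fold, and the median was 0.29. Il10rb was the highest at 0.52 and Il4ra, a chain of the interleukin 4 receptor, the lowest at -0.52 with 543 and 746 reads.

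All 4 JAKs were measured, 0 passed 2-fold, and the median log2 ratio was 0.31. Jak1, the main kinase of gp130, had 763 reads with manganese, against 543 without, at 0.43 [0.27 to 0.59]. Jak2 was at 0.61 [0.15 to 1.09] on 101 and 63 reads, but at 0.11 by FPKM. Tyk2 was at 0.20 and Jak3 at -0.25 [-0.83 to 0.32]. Of 6 STATs other than Stat3, 5 were measured, 0 passed 2-fold, and the median was 0.01. Stat2, which acts in interferon signalling, was at 0.51 with 528 and 354 reads. Stat6 was at 0.01, Stat5b at 0.08 and Stat5a at -0.03, and the estimates of the last pair were not whole.

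Among 32 genes known as STAT3 targets, 23 were measured, 0 were at least 2-fold higher and 1 was at least 2-fold lower, with a median log2 ratio of 0.11. The one was Cebpd, a transcription factor of the acute phase, with 19 reads in the Mn-treated library, against 39 in the untreated library, a log2 ratio of -1.08 [-1.98 to -0.28]. Bcl2, an inhibitor of apoptosis, was the highest at 0.64 [0.28 to 1.02] with 162 and 99 reads. Il6 is in this list too. The median of the list was -0.12 by FPKM, -0.08 with median-ratio scaling and -0.07 with TMM.

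Of 12 other negative regulators of the pathway 11 were measured, 0 were at least 2-fold higher and 1 was at least 2-fold lower, with a median of 0.24. Ptpn6, a phosphatase best known from blood cells, had 14 reads with manganese, against 34 without, a log2 ratio of -1.31 [-2.36 to -0.41]. The SUMO ligase Pias4 was the highest at 0.69 with 919 and 545 reads. The list compiled as SOCS-box partners, which takes in genes of related ubiquitin ligases, held 8 genes. All 8 were measured and 0 passed 2-fold, with a median of 0.02. Cul5, the scaffold of the ligase that the SOCS box recruits, was the highest at 0.63 [0.40 to 0.86] with 417 and 258 reads. The RING protein Rbx1 was the lowest of the list at -0.37 with 2770 and 3415 reads.

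**Figure D4:**
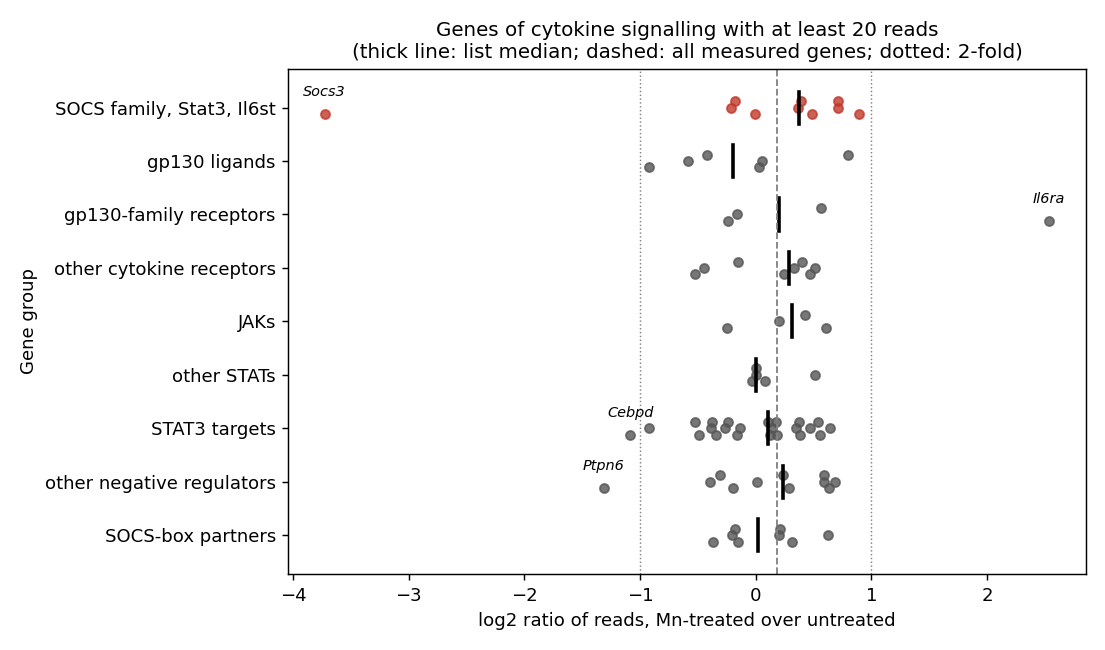
Log2 ratio of reads, Mn-treated over untreated library, for the SOCS family with Stat3 and Il6st (red) and for 8 lists of genes of cytokine signalling (grey), for genes with at least 20 reads. Thick lines are list medians, which lie between -0.20 and 0.31, the dashed line is the median of all measured genes, and the dotted lines mark 2-fold. Socs3, Il6ra, Cebpd and Ptpn6 lie outside the dotted lines.

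The genes whose ratio came nearest to that of Socs3, among those that reached 100 reads in either library, were Adap1, Phex, Itgav, Sec24d and Gm10096. Likeness here is the difference of log2 ratios over 2 libraries. The nearest, Adap1, lay 0.62 away and the fifth 1.34. The Mn-treated estimates of all 5 were not whole, ranging from 16.58 reads for Adap1 to 41.57 reads for Sec24d, as was that of Socs3. Of all measured genes 23.0% had an estimate that was not whole in at least 1 library, as did 42.1% of the 202 at least 2-fold lower. Of 9441 genes that reached 100 reads in either library, 3 had a lower ratio than Socs3. The estimates of 1 of these 3 were whole in both libraries.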

How the data were processed

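Total RNA of N2a cells was extracted with Trizol and depleted of ribosomal RNA before Illumina sequencing, per the labels' protocols. The submitters' processing notes name fastp 0.18.0, Bowtie2, StringTie and the build mm9 with no role or order. Which program counted the reads, on which annotation and with which strand setting, is not given in the sources used here. Values deposited by the authors are estimated counts (not whole for 13.3% of 22287 genes) and FPKM values per gene. The authors deposited a log2 fold change, equal to the FPKM ratio, and a p-value with its false discovery rate. Of the circRNA table the deposited whole junction read counts were used. Columns were assigned by the condition in their name and the RNA class, and 0 columns had no library.

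The estimates were rounded to whole counts. The log2 ratio is that of counts plus 0.5 over the column total, Mn-treated over untreated. Intervals for ratios and shares are exact binomial (Clopper-Pearson), and those for levels exact Poisson, all at 95% (scipy 1.17.1). As PCR copies were not marked by molecular identifiers, the intervals, and the limit of 3 counts for a count of 0, cover counting error only. No test across samples was made. Alternatives were median-ratio scaling, TMM (edgeR 4.0.16), FPKM, unrounded counts, pseudocount 1, other read minima and 1.5-fold. The ratio step was tested on simulated counts. The genes and lists were chosen with earlier results of these data known. Named are the 10 genes, all measured gp130-family receptors, JAKs and STATs, and in the other lists the highest, the lowest and each gene past 2-fold, with the 5 genes nearest to Socs3 in ratio; 1 gene that this rule names is not reported here. Estimates within 0.005 of a whole number count as whole. Where a symbol had several rows, that with most reads was used.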

Additional observations from a re-analysis of the deposited data

How the results depend on the processing

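The Socs3 ratio kept its direction and lay past 2-fold with both other scalings, FPKM, unrounded counts and another pseudocount. Its difference from the paralogs did so with FPKM, unrounded counts, their median in place of their sum, and without Socs7. Keeping only paralogs with whole counts removes Socs7 alone, so it is the same check. The Socs3 estimate of 23.29 reads in the Mn-treated library stays in each version. None of these alters how reads were assigned to features. Summed with the transcript ENSMUST00000172904, chosen after seeing the data, the Socs3 log2 ratio was -0.014. A value near 0 follows from that choice, as the gain of the transcript was near what Socs3 lacked. The difference from the paralogs ranged between -4.17 and -4.11 on the log2 scale, the version without Socs7 having been chosen after seeing the data. The 2-fold count of the 10 genes, 1 lower and 0 higher, was the same under both other scalings, by FPKM and with other read minima, and 3 were higher at 1.5-fold. Median-ratio scaling lowers every log2 ratio by 0.18 and TMM by 0.18. No sign among the 10 genes changed with these. Genes at least 2-fold higher over the table numbered 862, and 546 with median-ratio scaling, 555 with TMM, 2090 with at least 1 read, 485 with at least 100 reads and 2564 at 1.5-fold. Those lower numbered 202, and 327, 322, 783, 75 and 709 under the same settings. The median of all measured genes was -0.0010 with median-ratio scaling and 0.0067 with TMM. Of 48 list medians 24 changed sign or moved by over 0.1. With median-ratio scaling and TMM, which lower all alike, the medians were -0.38 and -0.37 for the gp130 ligands, 0.021 and 0.028 for the gp130-family receptors, 0.10 and 0.11 for the other cytokine receptors, 0.13 and 0.14 for the JAKs, -0.18 and -0.17 for the other STATs, 0.053 and 0.061 for the other negative regulators, -0.16 and -0.15 for the SOCS-box partners, and -0.076 and -0.069 for the STAT3 targets. By FPKM they were -0.14 for the gp130-family receptors, 0.12 for the other cytokine receptors, 0.17 for the JAKs, 0.086 for the other negative regulators and -0.12 for the STAT3 targets, and the cause was not tested. With at least 1 read the ligands were at 0.029 and the other negative regulators at 0.12, and with at least 100 reads the ligands at -0.45, over more or fewer genes. No paired analysis was possible because each condition had 1 library, and no replicate could be left out. Depth limits Socs1, Cish and Il6ra, which had between 6 and 113 reads in a library. It also limits Ptpn6, Cebpd and Clcf1, which had between 14 and 44, and Socs3, which had 23 in the Mn-treated library.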

Other observations

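The circRNA table held 2253 circular RNAs, of which 3 had one of the 10 genes as host. Il6st hosted 2, with 2 junction reads each in the Mn-treated library, against 1 and 0 in the untreated library. Socs6 hosted 1, with 0 junction reads in the Mn-treated and 3 in the untreated library. The libraries held 9433 and 11665 junction reads in all, so no difference in these circles was detectable at this depth.

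The annotation in the mRNA table puts 163 genes in the JAK-STAT signaling pathway, and 75 measured ones were not among the 10 genes. Their median log2 ratio was 0.19, and past 2-fold lay 3 higher and 1 lower, where the shares of all measured genes were 7.26% and 1.70%. Beside Il6ra and Ptpn6 these were Pik3ca and Pik3cb, catalytic subunits of phosphoinositide 3-kinase. Pik3ca had 293 reads in the Mn-treated and 139 in the untreated library, a log2 ratio of 1.01 [0.72 to 1.31]. Pik3cb had 141 and 60 reads, at 1.16 [0.72 to 1.63], on estimates that were not whole. This pathway was looked up, and both genes chosen, after their values had been seen.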
